A study of Daphnia magna with 36 samples.

Results

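Adult female Daphnia magna, a freshwater crustacean that is kept as a standard animal of toxicity tests, were exposed to zinc sulphate (ZnSO4) at the LC25 and set against unexposed laboratory animals on 2-colour arrays. The group was taken by title and held 6 of the 36 arrays of the series, from 5 of its 23 exposures. Each RNA sample was made from 16 whole animals, pooled, that were 10 days old. They had spent 24 h at 25 °C in 0.91 mg/L ZnSO4, against the same time without a toxicant for the unexposed animals hybridised to the same array. The groups used beside it were zinc oxide nanoparticles (ZnO NP) at the LC25 (9.0 mg/L), silica nanoparticles (SiO2 NP) at the LC25 (5.1 mg/L) and ZnSO4 at 1/10 LC50 (0.13 mg/L), with 4, 4 and 3 exposures, each again set against unexposed animals. The LC25 is a concentration fixed by the share of animals it kills, so the LC25 groups matched in toxicity and not in the mass of the compound. The series also held ZnO NP (2.2 mg/L, 4 exposures) and SiO2 NP (1.4 mg/L, 3 exposures) at 1/10 LC50, which entered the common fit. Whole animals give RNA of all tissues at once, and a change in the number of cells of a type cannot be told apart from a change of RNA per cell. The series' design text plans 3 exposures on dye-swapped pairs, whereas the titles number 5 exposures here, of which 1 was hybridised on a swapped pair.

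Zinc is an essential metal. Zinc sulphate dissolves and supplies free zinc ions, which enter freshwater crustaceans through the gills and gut and, in excess, disturb the uptake of calcium. Animal cells hold free zinc low with importers and exporters of the ion and with metallothioneins, small proteins that bind it. The identifiers of the 7680 probes are plate positions, which the files do not pair with genes, and 0 of them occur in the RefSeq gene table of the species, so the probes below have no gene name or role, and no sequence is shown.

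The values were log ratios between exposed and unexposed animals, one per probe and array, read as log2. The sources used here do not say whether exposed or unexposed RNA is on top of the ratio, so that ratios are called positive or negative and not higher or lower. Exposures 1, 2 and 3 had exposed RNA in Cy5 on 1 array each and exposure 5 in Cy3 on 1 array. Exposure 4 was on a pair, with exposed RNA in Cy3 on its first array and in Cy5 on its second. The arrays held a value for 77.3%, 76.9% and 88.0% of probes in exposures 1 to 3, for 58.4% and 90.5% on the arrays of exposure 4, and for 80.1% in exposure 5, against 46.7% to 85.9% on the 30 arrays of the other groups. The SD over probes was 0.45, 0.44 and 0.32 on the log2 scale in exposures 1 to 3, 0.50 and 0.38 on both arrays of exposure 4, and 0.48 in exposure 5. Exposure 3 had the narrowest distribution, with 1.17% of its values beyond a 2-fold ratio, against 2.70% to 5.86% on the other 5 arrays. Of all probes, 4611 had a value in all 5 exposures, 1512 in 4, 859 in 3, 22 in 2 and 676 in none.

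Exposure 3 stood apart from the others. Across probes it correlated negatively with exposures 1, 2 and 5, with Pearson r = -0.154, -0.291 and -0.484 over 5706, 5672 and 6063 probes, and positively only with exposure 4 (r = 0.154, 6730 probes). The 6 pairs among the other exposures all correlated positively. The best of them were exposures 2 and 5 (r = 0.476, 64.0% of probes with the same sign) and the weakest were exposures 1 and 4 (r = 0.128, 54.7%). Exposures 3 and 5 shared the sign at 30.2% of probes. These arrays share probes, and whether they share unexposed RNA is not stated, so the coefficients are given as a description with no p-value. The arrays of the swapped pair of exposure 4 correlated at r = 0.492 over 4465 probes valued on both, little above exposures 2 and 5. Of these probes 64.1% had the same sign, and the median absolute difference was 0.26 on the log2 scale. Across the whole series, arrays of different exposures reached r = 0.605 in the same and 0.633 in the opposite dye orientation. Where both arrays of exposure 4 lay beyond a 2-fold ratio, 51 of 51 probes had the same sign. Rank correlations gave the same order at the extremes, -0.54 for exposures 3 and 5 and 0.40 for exposures 2 and 5, while exposures 3 and 4 had a Spearman rho of 0.0396.

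Exposure 3 was closer to the other LC25 groups than to most exposures of its own. Its median correlation with the 4 exposures of ZnO NP at the LC25 was 0.309 (-0.0725 to 0.458), and with the 4 of SiO2 NP at the LC25 it was 0.211 (0.0857 to 0.471), against -0.223 with the other 4 of ZnSO4. Exposures 1, 2 and 5 had medians of -0.0112, -0.0750 and -0.0405 with ZnO NP and of -0.117, -0.0157 and -0.0804 with SiO2 NP. Exposure 4 had 0.0683 and 0.172 with the same groups. The medians of exposures 1, 2, 4 and 5 with the other exposures of ZnSO4 at the LC25 were 0.190, 0.196, 0.143 and 0.270. At the median, exposure 4 was thus also closer to SiO2 NP at the LC25 than to its own group. Exposure 2 had 0.199 with ZnO NP at its lower concentration, next to its median with its own group. Exposures 1 and 5 had their highest median with their own group, and only exposure 3 had a negative one there. These coefficients were taken from the values as deposited, with no plate median subtracted, so the differences between plates described below enter them. Shared unexposed RNA would enter them too, and they are given without a test.

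**Figure D1:**
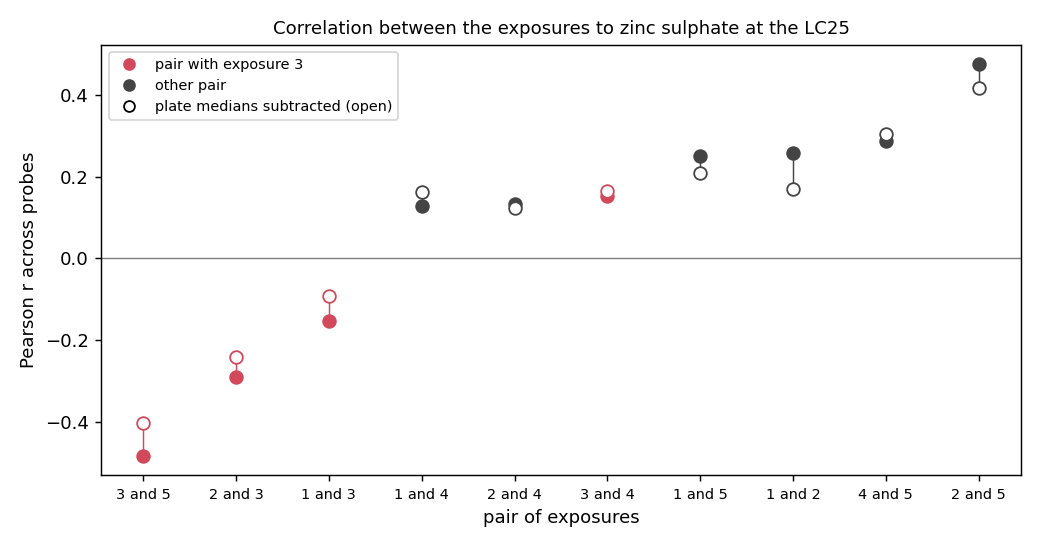
Pearson correlation across probes (vertical axis, no unit) for each of the 10 pairs of exposures to zinc sulphate at the LC25 (horizontal axis, ordered by r), as deposited (filled) and with the median of each plate subtracted (open). The 3 pairs below 0 are exposure 3 with 5, 2 and 1, between -0.484 and -0.154 as deposited and still below 0 after the subtraction.

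Against unexposed animals, 27 of the 5495 probes tested passed the threshold (limma, Benjamini-Hochberg adjusted p below 0.05 over all probes tested), which is 0.491% of them. Of these, 8 had a positive ratio (0.146%) and 19 a negative one (0.346%); with all signs turned these numbers would change places. Before adjustment, 893 probes had a p below 0.05. With the group fitted alone and no dye term 0 passed in limma (497 at an unadjusted p below 0.05, lowest adjusted p = 0.136), and 0 when ratios were taken to be Cy5 over Cy3 (383 at an unadjusted p below 0.05). Bringing the arrays to the same spread left 2 probes, and weighting them by quality left 3. The sizes were moderate, with a median absolute ratio of 0.74 on the log2 scale against 0.14 for all probes tested, and 2 of the 27 exceeded a 2-fold ratio, both positive. The test asked whether the mean ratio of the exposures differs from 0, with the spread of each probe estimated over all 6 groups. Titles count separate exposures, and whether each had its own unexposed animals is not stated. P-values then measure the spread between exposures within all 6 groups, and not that of the 5 exposures to ZnSO4 at the LC25 alone. The 95% confidence interval reached a median of 0.27 to either side on the log2 scale in this fit. With the group fitted alone and no dye term it reached 0.35, over 7004 probes.

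The probes shown in detail were picked among those past the threshold with 1 sign in all exposures, so that their sign in exposure 3 was fixed by the choice. P4CB5 had the largest positive ratio. It stood at 0.55 in exposure 2, 1.43 in exposure 3 and 1.25 in exposure 5, at 2.42 and 2.12 on the arrays of exposure 4, and had no value in exposure 1. All 5 values were positive, and those of the swapped pair were the highest. The fitted ratio was 1.39 ± 0.22 (log2 ± SE, 2.62-fold, adjusted p = 0.00520 in limma), and 1.36 without exposure 3 (adjusted p = 0.00522). Under ZnO NP at the LC25 the probe was also positive in each of the 4 exposures, from 0.54 to 1.73, whereas it ranged from -0.40 to 0.29 under SiO2 NP at the LC25 and from 0.0015 to 0.36 under ZnSO4 at 1/10 LC50.

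P10DA12 had 0.30, 0.55 and 0.07 in exposures 1, 2 and 3, 1.84 and 1.74 on the arrays of exposure 4, and 1.54 in exposure 5. The values of exposures 4 and 5 lay far above those of the first 3 exposures, and the value of exposure 3 was next to 0. The fitted ratio was 1.02 ± 0.17 (log2 ± SE, 2.03-fold, adjusted p = 0.00520 in limma), and 1.13 without exposure 3 (adjusted p = 0.00157). The mean of the exposures, with no dye term, was 0.85 ± 0.77 (SD, n = 5). Without exposure 5 the ratio was 0.97 and no longer passed (adjusted p = 0.0726). The probe was positive in all 4 exposures to SiO2 NP at the LC25, from 0.04 to 0.49, and ranged from -0.04 to 0.78 under ZnO NP at the LC25 and from -0.11 to 0.20 under ZnSO4 at 1/10 LC50.

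On the negative side, P9DG10 had -1.55 and -1.91 in exposures 1 and 2, -0.69 in exposure 3, -0.81 and -0.57 on the arrays of exposure 4, and -0.76 in exposure 5. All 6 arrays were negative, and exposures 1 and 2 lay lowest. The fitted ratio was -0.97 ± 0.17 (log2 ± SE, 1.96-fold, adjusted p = 0.00697 in limma). It was -1.12 without exposure 3 (adjusted p = 0.00157) and -0.88 without exposure 5, where it did not pass (adjusted p = 0.114).

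P6AC5 had -0.53, -1.46 and -0.77 in exposures 1, 2 and 3, -0.92 and -0.51 on the arrays of exposure 4, and -1.29 in exposure 5. Every array was negative, with exposures 2 and 5 the lowest. The fitted ratio was -0.91 ± 0.15 (log2 ± SE, 1.88-fold, adjusted p = 0.00520 in limma). Without exposure 3 it was -0.96 (adjusted p = 0.00339), and without exposure 5 it was -0.61 and did not pass (adjusted p = 0.182). Both negative probes were also negative in all 4 exposures to ZnO NP at the LC25, from -1.52 to -0.53 for P9DG10 and from -1.19 to -0.57 for P6AC5. Under SiO2 NP at the LC25 P9DG10 ranged from -0.28 to 0.12 and P6AC5 from -0.35 to -0.05, negative in all 4 exposures. Under ZnSO4 at 1/10 LC50 both probes were negative in all 3 exposures, from -0.56 to -0.06 for P9DG10 and from -0.37 to -0.06 for P6AC5.

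**Figure D2:**
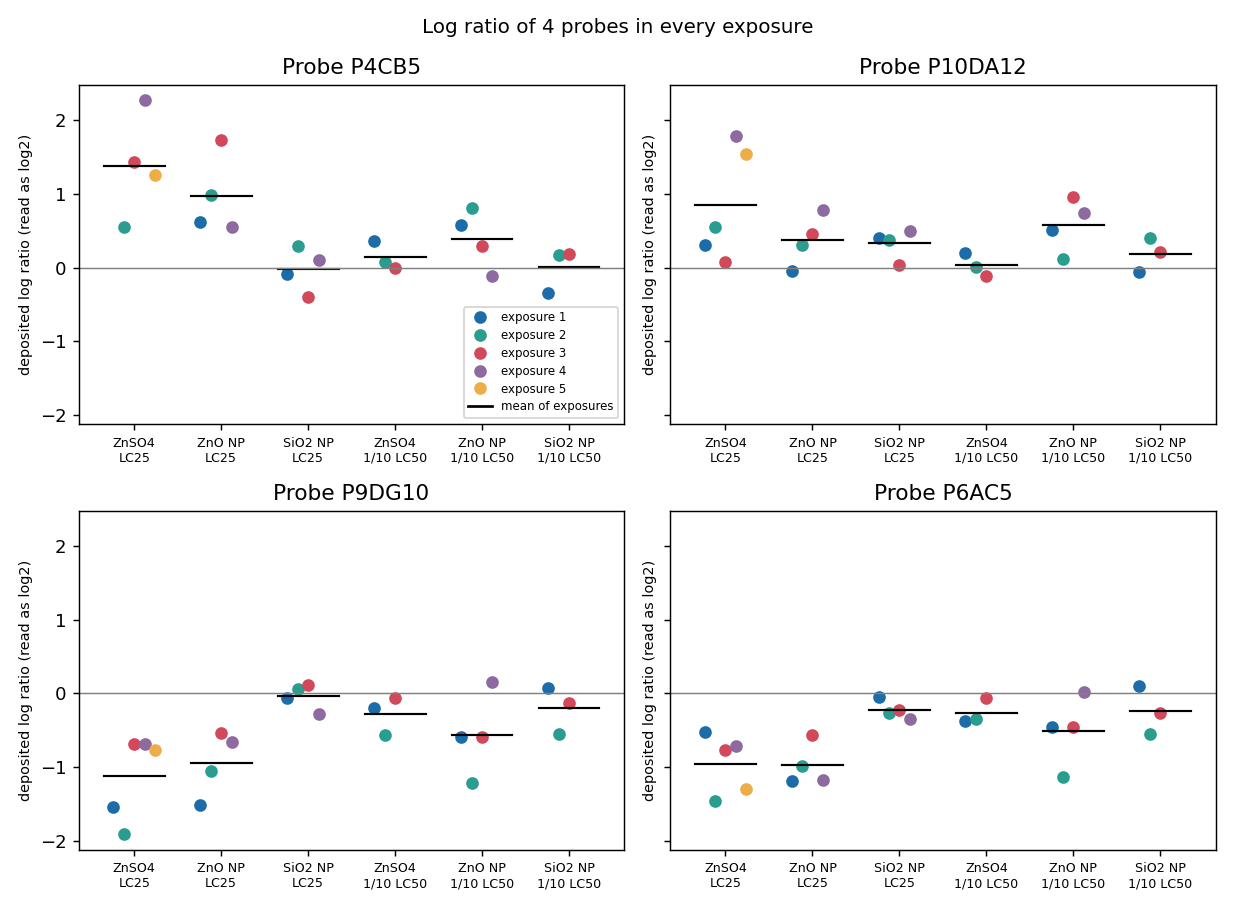
Log ratio, read as log2 (vertical axes), of the probes P4CB5, P10DA12, P9DG10 and P6AC5 in every exposure of the 6 groups (horizontal axes); points are exposures, coloured by their number, and black lines are group means. The 4 probes were picked for 1 sign in all exposures to zinc sulphate at the LC25, so that exposure 3 shares it by that choice.

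The probes past the threshold kept their sign in exposure 3. Of the 27, 25 had the sign of the fit there, against 26 of 26 in exposure 1, 25 of 25 in exposure 2 and 27 of 27 in exposures 4 and 5. Exposure 3 was part of the fit that chose them, and a probe of opposite sign there passed less easily, so these counts are a description. Counted in the direction of its call, the median ratio was 0.49 in exposure 3, the smallest, and 0.61, 1.10, 0.66 and 0.90 in exposures 1, 2, 4 and 5. Positive and negative calls had their medians furthest from 0 in different exposures. The 8 positive calls had medians of 1.12 and 1.23 in exposures 4 and 5, and 0.30, 0.55 and 0.24 in exposures 1 to 3. The 19 negative calls had their median furthest from 0 in exposure 2, at -1.28, and 13 of them had their largest absolute ratio there; in the other exposures the medians lay between -0.80 and -0.56. Exposure 3 was the furthest from 0 for none of the 27 (0 positive and 0 negative calls). It also had the narrowest distribution over all probes, so it would seldom be furthest from 0 for any probe. The share of all probes tested that lay furthest from 0 in each exposure was not counted. The counts for exposures 2 and 3 are therefore not read as traits of the calls.

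Outside the group the negative calls correlated with each other more, at the median, than all probes tested did, though not in every pair. Over the 18 exposures of the other 5 groups, pairs of the 19 negative calls with at least 10 shared values correlated at a median of r = 0.302, and 35.1% of the 171 pairs exceeded 0.5. Pairs of the 8 positive calls had a median of r = 0.0723, and pairs of all probes tested one of -0.0014, with 5.30% above 0.5. Of the 19, 7 lay on plate P9, which held 336 of the probes tested, and those 7 correlated at a median of 0.481. The remaining 12 correlated at a median of 0.184, with pairs from -0.761 to 0.934. The exposures behind these coefficients also entered the spread and dye term of each probe in the fit that chose the calls. All probes share the arrays of these exposures, and pairs of 1 plate share its position on them, so the coefficients are given with no test.

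Leaving out exposures in turn showed how much the count rested on exposure 3. Without exposure 3, 454 probes passed (8.26% of those tested), 231 positive and 223 negative, and all 27 were among them. Without exposure 1, 2, 4 or 5 the counts were 18, 14, 13 and 15. Exposure 5 mattered for the division by sign: without it 13 positive and 2 negative probes passed, and 4 of the 27 were kept. With the sign of exposure 3 turned, a setting chosen after seeing the data, 344 probes passed, 8 of the 27 among them. Turning exposure 1, 2, 4 or 5 in the same way left 1, 0, 0 and 1. The turned sign restates the negative correlations of exposure 3, and whether its label or sign is in error was not tested.

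**Figure D3:**
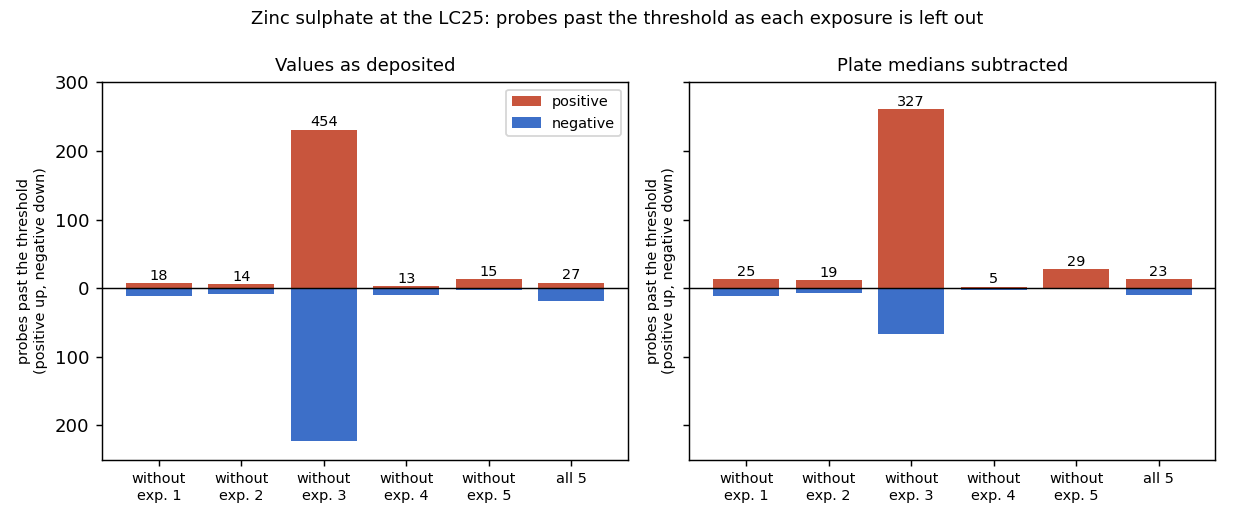
Number of probes past the threshold for zinc sulphate at the LC25 (vertical axis, positive ratios up and negative ratios down, total above each bar) without each exposure in turn and with all 5 exposures, for values as deposited (left) and with plate medians subtracted (right). The count rises to 454 and 327 without exposure 3.

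The exposure left out of a fit had no part in choosing the probes, so its values show whether it repeats the other 4. Of the 454 probes that passed without exposure 3, 453 had a value in it, and 101 had the same sign there while 352 had the opposite one. Their median in exposure 3 was -0.22 on the log2 scale, counted in the direction of the call. Large and small ratios were alike in this: of the 34 probes with a fitted ratio beyond 2-fold, 28 were opposite in exposure 3, and of the 211 with a ratio up to 0.5, 157 were. Taking the 100 probes with the lowest p in each such fit, 27 had the same sign in exposure 3 when it was left out. The same count was 75, 75, 80 and 53 for exposures 1, 2, 4 and 5. Among the 20 probes with the lowest p it was 9 for exposure 3, and 17, 17, 19 and 11 for exposures 1, 2, 4 and 5. Over all probes tested with a value in the exposure left out, 59.5%, 62.0%, 35.2%, 62.1% and 53.7% had the same sign for exposures 1 to 5. The 53 of 100 for exposure 5 thus lay next to its share over all probes. Most probes were opposite in exposure 3 whether they passed or not. Across all probes tested, the correlation of exposure 3 with the fit of the other 4 was -0.299, and that of exposures 1, 2, 4 and 5 was 0.255, 0.339, 0.328 and 0.0603. The low value of exposure 5 was not seen with the plain mean of the other 4, with no dye term, in place of the fit: over the 4611 probes valued in all exposures the correlations were then 0.265, 0.345, -0.330, 0.335 and 0.321 for exposures 1 to 5. Exposure 5 was the only one hybridised with exposed RNA in Cy3 alone, and whether the dye bears on its low value was not tested. The probes differed too, with 5276 behind the value from the fit for exposure 5 and 4611 behind that from the plain mean.

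Over the same 4611 probes, exposure 3 had the opposite sign to the mean of the other 4 at 65.5%, against 38.1% to 40.5% for each of the others. It was the only exposure of its sign at 20.3% of the probes, and the others were so at 2.60% to 5.18%. It was the highest or lowest of the 5 at 50.1%, while exposure 4 was at 28.4%. In all, 7.16% of these probes had 1 sign throughout, 80 positive and 250 negative.

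Part of this pattern followed the plate named in the probe identifiers. Probes fall into 7 plates named A1 to A7 (2688 probes) and 13 named P1 to P13 (4992 probes). In exposures 1, 2 and 5 the median ratio was positive on all 7 A plates, from 0.06 to 0.54, 0.10 to 0.39 and 0.15 to 0.29 on the log2 scale. In exposure 3 it was negative on all 7, from -0.20 to -0.10. In exposure 4 the A plates lay between -0.05 and 0.05, 5 of them positive. Plates P2, P4, P10, P11 and P12, picked after seeing their values, also moved as a block: their joint median was 0.16 in exposure 3 and -0.31 in exposure 5, with -0.12, -0.10 and -0.05 in exposures 1, 2 and 4. The medians of the 59 plates, with the A, B, C and D parts of each P plate taken apart, correlated at -0.884 between exposures 3 and 5 and at 0.702 between exposures 1 and 2. Plates accounted for 15.2%, 15.7%, 15.4%, 7.10% and 18.1% of the variance in exposures 1 to 5. On the arrays of exposure 4 the shares were 24.9% and 1.65%, the highest and the lowest of all 36 arrays. Whether plate, probe origin or position on the slide carried these medians was not tested.

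**Figure D4:**
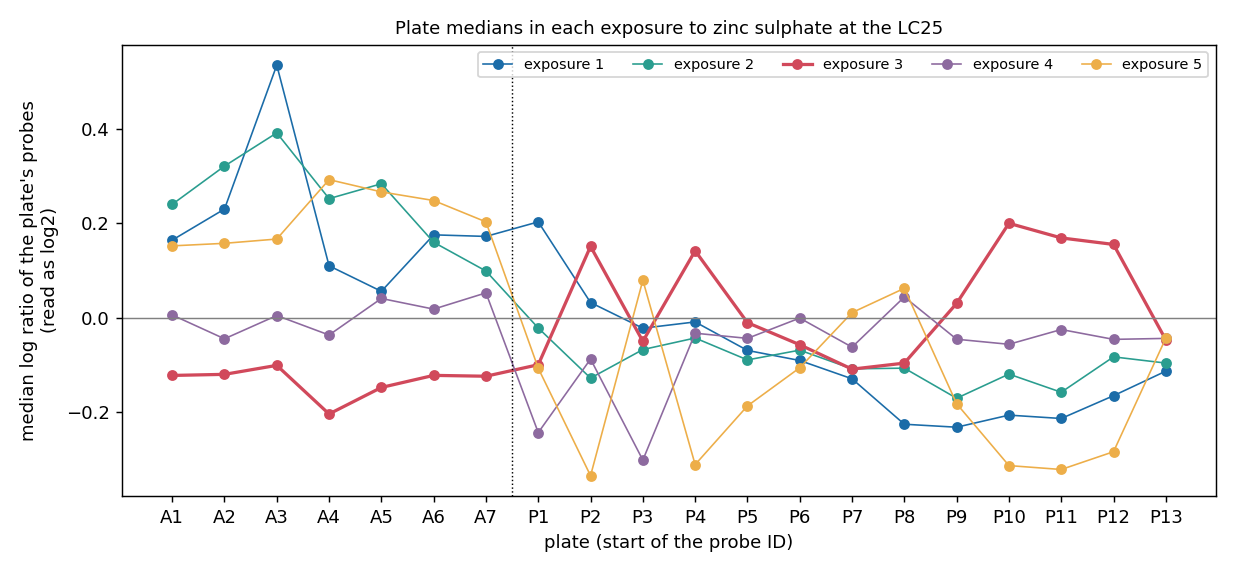
Median log ratio, read as log2 (vertical axis), of the probes of each plate (horizontal axis, A1 to A7 left of the dotted line, P1 to P13 right of it) in the 5 exposures to zinc sulphate at the LC25. On the A plates exposures 1, 2 and 5 lie above 0, exposure 3 lies between -0.20 and -0.10 and exposure 4 next to 0; on plates P2, P4, P10, P11 and P12 exposure 3 is above and exposure 5 below 0.

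Subtracting each plate's median from each array left the opposition in place at a smaller size. Exposure 3 then correlated at -0.092, -0.241 and -0.403 with exposures 1, 2 and 5, and at 0.166 with exposure 4. The call held at a like number: 23 probes passed (0.419%), 13 positive and 10 negative, 16 of the 27 among them, so the division by sign moved from mostly negative towards mostly positive. P4CB5, P10DA12, P9DG10 and P6AC5 passed there too, at 1.45, 1.12, -0.86 and -0.84. Without exposure 3 and with plate medians subtracted, chosen after seeing the data, 327 passed (5.95%), 261 positive and 66 negative. As deposited, the 454 probes without exposure 3 were split along the plates, with 138 positive and 6 negative on A plates and 93 positive and 217 negative on P plates. The probes tested numbered 1256 on A plates and 4239 on P plates, with median fitted ratios of 0.11 and -0.076 over all 5 exposures. In exposure 3, 128 of those 138 positive A probes were negative, with a median of -0.31 against a fitted median of 0.73. All probes of the A plates had a median of -0.13 in exposure 3. The share of them that was negative there was not counted, so the 128 are not read as a trait of the calls.

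The offset between A and P plates was set beside that of the other groups. The median of the A plates minus that of the P plates was 0.30, 0.34, -0.15, 0.07 and 0.38 in exposures 1 to 5 of ZnSO4 at the LC25, which is 0.19 ± 0.22 (SD, n = 5). It was negative in every exposure of the other LC25 groups, at -0.16 ± 0.10 for ZnO NP (SD, n = 4) and -0.14 ± 0.07 for SiO2 NP (SD, n = 4), and in those of ZnSO4 at 1/10 LC50, at -0.09 ± 0.07 (SD, n = 3). Both signs occurred at 1/10 LC50 of the particles, from -0.08 to 0.12 for ZnO NP and from -0.03 to 0.03 for SiO2 NP. The value of exposure 3 lay within the range of ZnO NP at the LC25 (-0.29 to -0.07). It also lay within those of SiO2 NP at the LC25 (-0.19 to -0.04) and ZnSO4 at 1/10 LC50 (-0.16 to -0.02). The values of exposures 1, 2, 4 and 5 lay above these ranges. Exposure 4 lay within the range of ZnO NP at 1/10 LC50, and exposures 1, 2 and 5 above all other exposures of the series. The offset was noticed in these data and was not tested.

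**Figure D5:**
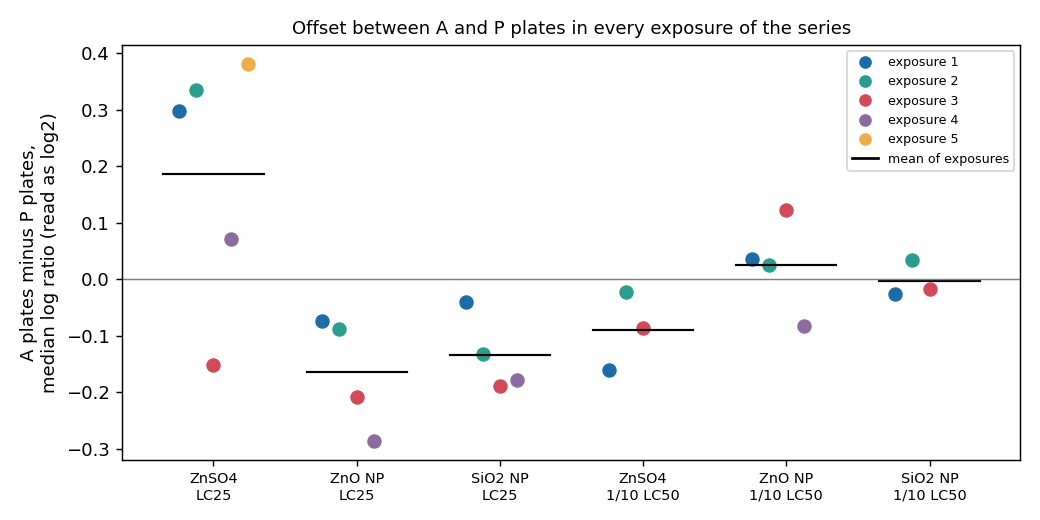
Median log ratio of the A plates minus that of the P plates (vertical axis, read as log2) in every exposure of the 6 groups (horizontal axis); points are exposures, coloured by their number, and black lines are group means. In zinc sulphate at the LC25 exposures 1, 2, 4 and 5 lie between 0.07 and 0.38 and exposure 3 at -0.15, while all 11 exposures of ZnO NP and SiO2 NP at the LC25 and ZnSO4 at 1/10 LC50 lie below 0.

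Tested directly against the groups most like it, ZnSO4 at the LC25 differed at few probes. From ZnO NP at the LC25, which releases zinc from particles, 2 of 5495 probes differed (0.0364%), with 1008 at an unadjusted p below 0.05. A1A4 had 0.42, 0.19, 0.00013, 0.26 and 0.08 in exposures 1 to 5 of ZnSO4, against -0.73, -0.61 and -0.72 in exposures 1 to 3 of ZnO NP, and no value in its exposure 4. The groups did not overlap, and the difference was 0.87 ± 0.15 (log2, ZnSO4 minus ZnO NP ± SE, adjusted p = 0.0314 in limma). P7BE6 had -0.76, -0.34, 0.15, -0.31 and -0.55 in exposures 1 to 5 of ZnSO4, against 0.67, 0.60, 0.64 and 0.26 in exposures 1 to 4 of ZnO NP. Exposure 4 of ZnSO4 and exposures 2 and 3 of ZnO NP had a value on only 1 array of their swapped pairs. Exposure 3 was the only positive one under ZnSO4 and lay next to the lowest ZnO NP value, with a difference of -0.90 ± 0.15 (adjusted p = 0.0314 in limma). With plate medians subtracted the differences were 0.70 and -0.84 and neither passed (adjusted p = 0.0870 for both). Without exposure 3 of ZnSO4, 677 probes differed from ZnO NP (12.3% of those tested).

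From SiO2 NP at the LC25, particles without zinc, 0 probes differed in limma (0%, 942 at an unadjusted p below 0.05, lowest adjusted p = 0.143). From ZnSO4 at 1/10 LC50, again 0 probes differed (0%, 565 at an unadjusted p below 0.05, lowest adjusted p = 0.0561). The 95% confidence interval of a difference reached a median of 0.38 to either side against SiO2 NP, 0.42 against the lower ZnSO4 level and 0.39 against ZnO NP on the log2 scale, before any adjustment over probes. P4CB5 differed by 1.38 ± 0.30 from SiO2 NP and by 1.25 ± 0.33 from the lower ZnSO4 level, and by 0.39 ± 0.30 from ZnO NP (log2 ± SE); none of these passed (adjusted p = 0.143, 0.354 and 0.507 in limma). P9DG10 differed by -1.11 ± 0.24, -0.70 ± 0.27 and -0.21 ± 0.24 from the same groups (adjusted p = 0.143, 0.446 and 0.667 in limma). Without exposure 3 of ZnSO4 at the LC25, 614 probes differed from SiO2 NP (11.2% of those tested) and 11 from the lower ZnSO4 level (0.2%). Of the 11, 9 were on A plates, which held 1256 of the 5495 probes tested. Whether the groups share unexposed RNA is not stated, and the differences do not allow for it.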

How the data were processed

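The authors deposited 1 log ratio per probe and array, taken here to be a log2 value. The base, numerator, background correction and normalization are not given in the sources used here. Array means lay between -0.021 and 0.015. Values were used without further scaling, and dye-swapped arrays were taken as already turned to 1 direction, an assumption: among 310 same-orientation array pairs of the series, 5 correlated below -0.3 (lowest -0.520), and among 7 in the ZnSO4 LC25 group 0 did (lowest -0.291). Among 307 opposite-orientation pairs 16 did (lowest -0.563), and among 7 in the group 1 did, exposures 3 and 5 (-0.484). The medians in the series were 0.0796 for the same and -0.0197 for the opposite orientation. Arrays of 1 exposure were averaged, and the 23 exposures of 6 groups were fitted together with limma 3.58.1 (R 4.3.3). A dye effect was fitted per probe, with each exposure coded +1, -1 or, for a swapped pair, 0. Probes valued on only 1 array of a pair were coded 0 as well, so their dye was not allowed for. In exposure 4 of ZnSO4 at the LC25, 20 probes had a value on the first array only and 2488 on the second only. A probe was tested if each group had it in 2 or more exposures (5495 of 7680; 46.7% of A plate and 84.9% of P plate probes). No array repeated another's values. Named probes are the 2 most positive and 2 most negative fitted ratios past the threshold with 1 sign in all exposures, and for differences up to 2 each way. Alternatives changed the scaling, plate centring, weights, dye term, filter, array averaging, groups fitted and exposures kept. The group, the interest in exposure 3 and all choices were made with earlier results of these data known. Gene lists were not used, since probes have no names. Depth does not apply to arrays; their number limits the precision.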

Additional observations from a re-analysis of the deposited data

Results flagged for a closer look

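In 34 sets of 4 to 6 values, each looked at for 1 value far from the rest, 3 stood out. Chance alone marks about 1 set in 20 where values are independent, a rate that does not apply here. The 3 were noticed in measures taken from the same probes, and the sign measures of an exposure are computed from the other exposures too. Exposure 3 had been singled out beforehand from these data, so the 3 are a description and no test. The share of probes at which an exposure was the only one of its sign was 20.3% in exposure 3 of zinc sulphate at the LC25, with 2.60% to 5.18% in the other 4. The share of probes with the opposite sign to the mean of the other exposures was 65.5% in exposure 3, with 38.1% to 40.5% in the others. The share of variance between plates was 7.10% in exposure 4, which averages a swapped pair, with 15.2% to 18.1% in the single arrays of the other exposures.

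A pair of probes differed between ZnSO4 and ZnO NP at the LC25 by the test of the difference itself. A1A4 differed by 0.87 and P7BE6 by -0.90 on the log2 scale (ZnSO4 minus ZnO NP, adjusted p = 0.0314 in limma for both), and both lost the call without any 1 of ZnSO4 exposures 1, 2, 4 and 5 or ZnO NP exposures 1, 2 and 3.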

How the results depend on the processing

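The 27 probes of ZnSO4 at the LC25 became 13 to 454 when 1 exposure was left out, 2 with arrays scaled to one spread, 3 with quality weights, 75 with single arrays blocked at random by exposure, 17 with the first array of each exposure, 14 without arrays valued for under 60% of probes, 10 with the LC25 groups only, and 0 with the group fitted alone, with or without a dye term (limma, 625 and 497 at an unadjusted p below 0.05). Read as Cy5 over Cy3, 0 passed in limma (383 at an unadjusted p below 0.05), and P4CB5, P10DA12 and P6AC5 reversed to -0.0263, -0.41 and 0.0919. The remaining planned settings (plate medians, robust prior, no dye term, both filters) gave 23, 26, 34, 24 and 24. Added after seeing the data: A plates only gave 2 and P plates only 34; plate medians subtracted without exposure 1, 2, 3, 4 or 5 gave 25, 19, 327, 5 and 29; the sign of exposure 1, 2, 3, 4 or 5 turned gave 1, 0, 344, 0 and 1. The 2 probes of the difference from ZnO NP became 0 to 677 with 1 exposure left out (11 without ZnO NP exposure 4), 178 with the random block, 28 without arrays under 60%, 6 with no dye term, 1 with values in every exposure or on P plates only, and 0 with scaled arrays, plate medians, quality weights, Cy5 over Cy3, first arrays or both groups alone; plate medians without exposures 1 to 5 gave 0, 1, 280, 0 and 0. The 0 probes of the difference from SiO2 NP became 0 to 614 with 1 exposure left out, 31 with the random block, and 0, 1, 158, 0 and 1 with plate medians and exposures 1 to 5 left out. The 0 probes of the difference from ZnSO4 at 1/10 LC50 became 0 to 11 with 1 exposure left out, 1 with no dye term, 2 with values in every exposure, 12 with the random block, 16 with first arrays, 6 with both groups alone, 8 on A plates only, and 0, 2, 1, 0 and 1 with plate medians and exposures 1 to 5 left out. The causes were not tested.

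With the exposure number as a replicate block, 43 probes passed for ZnSO4 at the LC25 (24 of the 27 among them), and 0 differed from ZnO NP, SiO2 NP or ZnSO4 at 1/10 LC50 in limma (643, 638 and 433 at an unadjusted p below 0.05). Deviations of same-numbered exposures correlated at a median of -0.0511 over 18 pairs (-0.276 to 0.342), others at 0.028, and not every exposure correlated best with its own number. The numbers were not taken as pairs; whether some of these exposures share a day or unexposed RNA was not tested.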
